A study of Mus musculus with 16 samples.

Results

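Voltage-gated and pacemaker ion channels were followed here as the genes whose symbols begin with Kcn, Hcn, Cacn or Clcn, or with Scn and a number followed by a or b. Membership was read from the platform annotation, and a probe set counted only where that annotation gave it exactly 1 symbol. The rule found 88 probe sets for 68 genes, out of 12422 probe sets tested and 8251 genes with a single symbol. Where a gene had several probe sets, the brightest by mean over the 16 arrays stood for it, and for these 18 genes the remaining probe sets served as a check. The arrays fell into 4 groups: adult C57/B6 mouse retina (5 arrays) and postnatal day 1 mouse cortex (5 arrays) at a first site, and adult mouse retina (3 arrays) and postnatal day 1 mouse cortex (3 arrays) at a second site, called site 2. Per the design text every array received an aliquot of 1 of 2 total RNA pools, 350 mice for retina and 19 mice for cortex per the first-site labels, so the p-values reflect technical variation among arrays and no other. The labels of the cortex samples name C57/B6 donors but the design text names Swiss-Webster, so organ, age and possibly strain differ together between the tissues and cannot be told apart. The design text gives the purpose as measuring the variation between replicates on this platform and between sites.

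Voltage-gated channels are membrane proteins whose pore opens or closes with the membrane potential. Sodium channels carry the upstroke of the action potential, potassium channels bring the membrane back toward rest, and calcium channels couple depolarisation to transmitter release. Auxiliary subunits escort the pore-forming subunits to the membrane and tune their gating, and HCN channels open on hyperpolarisation and pass a pacemaker current. In the retina, photoreceptors and bipolar cells signal with graded potentials, whereas ganglion cells fire action potentials along the optic nerve. The Clcn family is not voltage-gated throughout: it holds plasma membrane chloride channels and the chloride-proton exchangers of endosomes and lysosomes.

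Array medians of the deposited intensities ran from 45.7 to 216, and single-gene values are given as scaled intensities, in which each array's median is 100. The level reached by the brightest of 13 control probe sets with no added target served as a floor, which lay between 12.6 and 37.0 on the scaled axis. Of the 68 genes, 32 were above the floor on all 16 arrays, 33 on some of them, and 3 on none (Kcnj2, Kcnmb1 and Scn10a). All 7 measured rod markers were higher in retina at both sites and all 6 markers of immature neurons were lower. Replicate 2 of the cortex arrays at site 2 was the dimmest array, with a median of 45.7. Its mean correlation with the other 2 arrays of its group was 0.943, whereas those of the other 15 arrays ran from 0.965 to 0.991, so calls at site 2 that change when it is left out are given both ways.

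Channel genes differed between the tissues in both directions. At the first site 20 of the 68 genes were higher in retina and 23 were lower (limma, adjusted p under 0.05), that is 29.4% and 33.8% of the members. Over all probe sets tested, the background was 21.9% higher and 25.2% lower. At least 2-fold differences were fewer, with 11 genes higher and 5 lower (7.16% and 7.95% of all probe sets), and 25 genes did not pass. At site 2 the counts were 11 higher and 19 lower, or 16.2% and 27.9%, beside a background of 16.7% higher and 15.9% lower. Of these, 9 in each direction were at least 2-fold (8.71% higher and 8.6% lower of all probe sets). The median log2 difference over the members at the first site was -0.10, beside -0.05 over all probe sets, and the site 2 medians were -0.17 and -0.02. In these bulk samples, fewer cells of a type and less RNA per cell cannot be told apart.

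The same direction passed at both sites for 10 genes higher in retina and 13 lower, and 20 genes passed at neither. A further 18 passed at the first site alone, 5 passed at site 2 alone, and 2 passed in opposite directions. The matching shares over all probe sets were not counted, so these numbers do not set the channel genes apart. Leaving out the dimmest cortex array raised the site 2 counts to 20 higher and 25 lower, against a background of 26.6% higher and 21.3% lower without it. None of the 30 calls was lost then, 9 were gained as higher and 6 as lower, and 33 genes had the same call at both sites. For the 33 no share over all probe sets was counted either. The split of higher against lower calls also moved with the centring of the arrays. As centred on the median, 46.5% of the called members were higher in retina at the first site and 36.7% at site 2, beside 46.6% and 51.2% of all called probe sets. With no centring, 20 were higher and 14 lower at the first site (58.8% higher, beside 53.3% of all called), and 4 higher and 2 lower at site 2 (66.7%, beside 44.4%). Centring on probe sets called at neither site gave 15 higher and 10 lower at site 2, where 54.2% of all called were higher. Quantile normalization gave 15 higher and 16 lower there, with 49.5% of all called higher. Every direction is therefore relative to the array median.

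**Figure D1:**
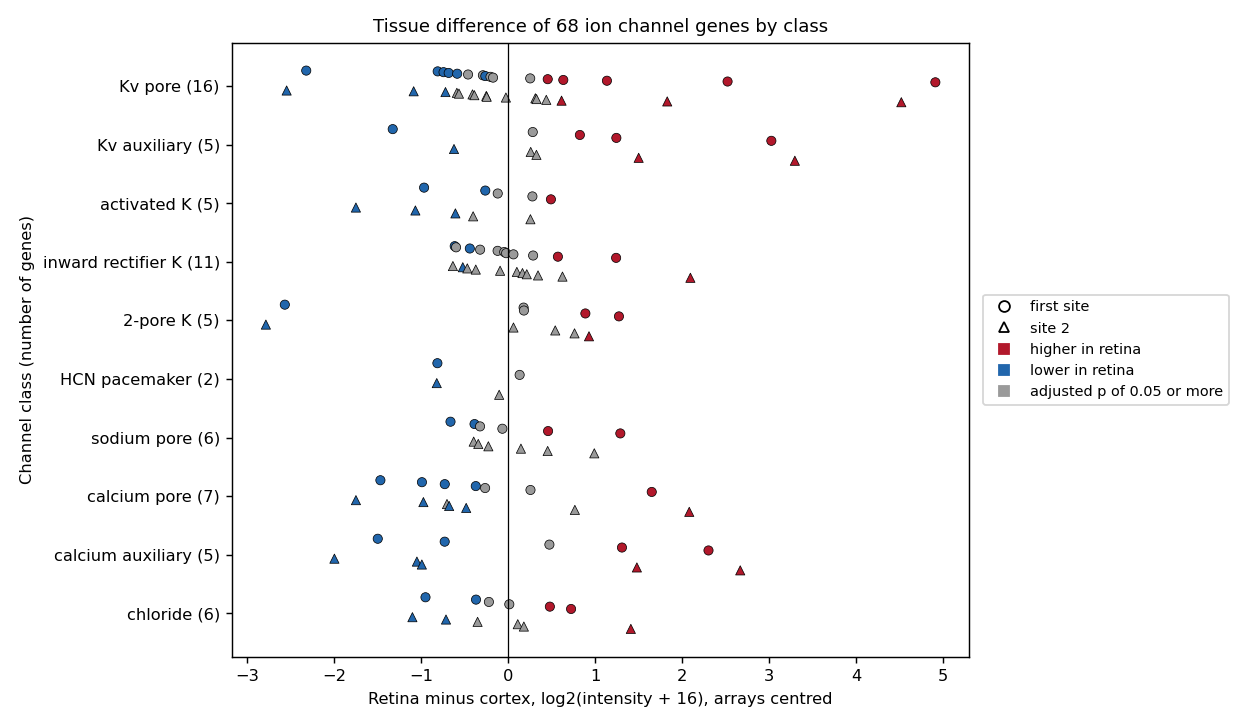
Each mark is 1 of 68 channel genes, placed by its retina minus cortex difference in log2(intensity + 16) and arranged by channel class, with circles for the first site and triangles for site 2. Red marks passed as higher in retina, blue marks as lower, and grey marks did not pass. The range runs from -2.57 for Kcnk2 to 4.91 for Kcna5 at the first site, and most classes hold marks on both sides of 0.

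The voltage-gated potassium pores were the class with 16 genes, of which 5 were higher in retina and 6 lower at the first site, and 3 higher and 3 lower at site 2. Kcna5 encodes a delayed rectifier of the Shaker family. It had scaled intensities of 1176, 1189, 1217, 1102 and 1094 in first-site retina, against 21.1, 15.9, 28.9, 30.6 and 25.2 in first-site cortex. All retina arrays lay far above all cortex arrays, and only 2 of the 5 cortex arrays were above their own floor. The log2 difference was 4.91 ± 0.10 (SE, adjusted p = 1e-15). At site 2 Kcna5 had 1103, 1185 and 1166 in retina and 40.2, 34.6 and 31.7 in cortex, again without overlap, and the difference was 4.52 ± 0.17 (adjusted p = 5.8e-08).

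Kcnd2, the pore of a fast inactivating A-type current in dendrites, ran the other way. Its scaled intensities were 98.4, 97.8, 83.1, 132 and 55.6 in first-site retina and 489, 396, 474, 640.0 and 604 in first-site cortex, a difference of -2.32 ± 0.17 (SE, adjusted p = 6.4e-09). At site 2 they were 73.7, 59.0 and 47.5 in retina and 318, 678 and 366 in cortex, a difference of -2.55 ± 0.23 (adjusted p = 1.8e-05). Every retina array was below every cortex array at each site. The spread among arrays was wide within each group, with first-site SDs of 27.6 for retina and 99.8 for cortex.

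Kcnh2, an ERG channel known from cardiac repolarisation, was higher in retina at both sites. It had 588, 626, 553, 639.5 and 528 in first-site retina and 259, 265, 265, 249 and 264 in first-site cortex, a difference of 1.13 ± 0.07 (SE, adjusted p = 1.3e-09). On the site 2 arrays it had 813, 922 and 965 in retina and 248, 214 and 274 in cortex, a difference of 1.83 ± 0.17 (adjusted p = 1.9e-05). The cortex arrays were close together at the first site, while retina arrays stood clear of them at both.

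Kcna1, which is described with the interaction, aside, the other members differed by less. Kcnc1, a pore of fast-spiking neurons, was higher in retina at the first site by 0.63 ± 0.21 (SE, adjusted p = 0.019), with overlapping arrays, and missed the threshold without replicate 5 of the retina arrays (adjusted p = 0.054). Its site 2 difference was 0.44 ± 0.23 (adjusted p = 0.2), and 0.59 ± 0.18 without the dimmest cortex array (adjusted p = 0.023). Kcna2, a Shaker channel of axons, was higher by 0.45 ± 0.15 (adjusted p = 0.019), and at site 2 it differed by 0.32 ± 0.20 (adjusted p = 0.27). Kcna3, a channel also known from T cells and microglia, had 59.0, 45.6, 61.3, 58.4 and 71.9 in first-site retina and 102, 133, 116, 105 and 115 in first-site cortex. The arrays did not overlap, and the difference was -0.81 ± 0.12 (adjusted p = 3.7e-05). At site 2 the Kcna3 difference of -0.57 ± 0.25 did not pass (adjusted p = 0.12), but without the dimmest cortex array it was -0.82 ± 0.18 (adjusted p = 0.0031). Microglia markers gave 0 of 5 higher and 2 of 5 lower at the first site, with summed levels of 532 to 597 in retina and 627 to 717 in cortex, and their part in the Kcna3 result was not tested.

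Kcns1, a silent subunit that modifies other potassium channels, was lower in retina, with a difference of -0.75 ± 0.17 (SE) at the first site and, on the site 2 arrays, -1.09 ± 0.26 (adjusted p = 0.0015 and 0.009). In retina it was above the floor on 2 of 5 first-site arrays and on 2 of 3 arrays at site 2. Kcnh1, an EAG channel, was lower, with a difference of -0.69 ± 0.27 at the first site (adjusted p = 0.046). That call held for only 2 of the 10 ways of leaving out 1 array, with differences from -0.97 to -0.54 and adjusted p up to 0.13. Kcna6 was lower at the first site, with a difference of -0.59 ± 0.22 and Kcnq1, a slow delayed rectifier of heart and epithelia, by -0.26 ± 0.09 (adjusted p = 0.036 and 0.025), and neither passed at site 2 with all arrays. Without the dimmest cortex array Kcna6 was lower there, with a difference of -0.62 ± 0.19 (adjusted p = 0.022). The other Kcnq1 probe set, at or under the floor on most arrays, differed by 0.44 at the first site and did not pass. Kcna4, a fast inactivating Shaker channel, passed at site 2 alone, where retina was higher by 0.61 ± 0.21 (adjusted p = 0.048). Kcna7, Kcnd1, Kcnd3 and Kcns2 passed at neither site with all arrays, with first-site differences between -0.46 and -0.18. Of these Kcnd1, an A-type pore, was lower at site 2 without the dimmest cortex array, with a difference of -0.63 ± 0.20 (adjusted p = 0.026).

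**Figure D2:**
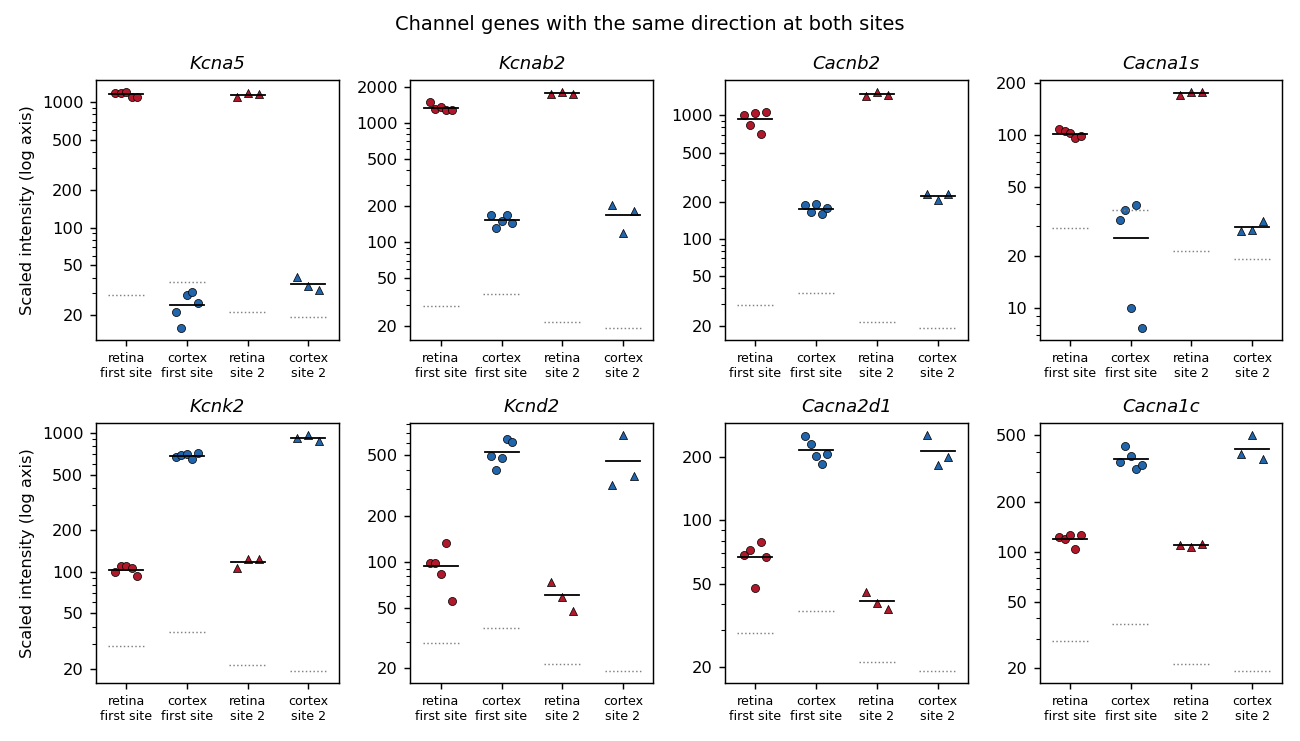
Scaled intensity on a log axis of 8 channel genes, 1 mark per array, with retina in red and cortex in blue, circles for the first site and triangles for site 2. Solid lines are group means and dotted lines the highest floor among a group's arrays. Retina and cortex arrays do not overlap in any panel at either site. Kcna5, Kcnab2, Cacnb2 and Cacna1s are higher in retina, and Kcnk2, Kcnd2, Cacna2d1 and Cacna1c are lower.

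Several members are neighbours on a chromosome, as read from the RefSeq gene order of assembly GRCm38.p6. Kcna5, Kcna1 and Kcna6 follow each other on chromosome 6 with no protein-coding gene between, and their first-site differences were 4.91, 2.52 and -0.59. Kcna3 and Kcna2 are adjacent on chromosome 3 and differed by -0.81 and 0.45. On chromosome 2, Scn1a, Scn9a and Scn7a are adjacent and differed by 1.29, -0.67 and 0.46, with Scn3a 4 protein-coding genes away at -0.33. At the first site each of these 3 places held members called in different directions, although on chromosome 2 the lower call, of Scn9a, was near the floor. Kcnj6 and Kcnj15 on chromosome 16 (-0.05 and -0.03) and Kcnj5 and Kcnj1 on chromosome 9 (-0.12 and 0.28) are adjacent too, and none of them was called. Kcnj11 and Kcnc1 on chromosome 7, with 4 protein-coding genes between them, differed by -0.60 and 0.63, and only Kcnc1 was called. At site 2 with all arrays, Kcna5 was called higher and Kcna1 lower. Kcna2, Kcna3, Kcna6, Scn1a, Scn7a and Scn9a were not called there.

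Promoter windows, from 250 bases before to 50 after a gene's start, were taken from RefSeq (GRCm38.p6) for the 53 of 68 genes that have an entry in its promoter table, with 70 windows in all out of 32851. They are described only by the letters they hold. The median GC content was 59.3% over the channel windows and 52.7% over all windows. It was 55.5% for genes higher in retina at the first site and 64.0% for genes lower. The GC box GGGCGG, read on both strands, occurred in 35 of the 70 channel windows and 35.7% of all windows. CCAAT occurred in 18.6% and 37.4%, and TATAAA in 7.14% and 13.6%. The letters TAATCC, the core that photoreceptor homeodomain proteins such as Crx are known to bind, occurred in 5.71% of the channel windows and 7.06% of all windows. They lay in 3 of 24 windows of genes higher in retina at the first site and 1 of 27 windows of genes lower. The genes were Cacna1s, Kcnj9, Scn7a and Cacna1c.

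Windows of 4 genes with 1 direction at both sites are shown as examples: Kcna5, Kcnj9 and Cacna1s higher in retina, and Kcnd2 lower. They are not the 4 largest differences: Kcnab2, Cacnb2 and Kcnk2 differed by more than Kcnj9 and Cacna1s at both sites and are not shown. For Kcnj9 the direction is that of the brighter probe set, which the other one did not repeat at the first site. Kcnj9 and Cacna1s are among the 4 genes that hold TAATCC, so the examples do not measure how often it occurs. Each window is written 5′ to 3′ on the gene's strand, and capitals mark TAATCC or GGGCGG on either strand. Kcna5 holds neither, Kcnj9 and Cacna1s hold 1 TAATCC each, and Cacna1s and Kcnd2 hold 1 GGGCGG each. Kcna5 is at chr6:126535506-126535805 on the minus strand, Kcnj9 at chr1:172329273-172329572 on the minus strand, Cacna1s at chr1:136052561-136052860 on the plus strand, and Kcnd2 at chr6:21215096-21215395 on the plus strand.
Kcna5: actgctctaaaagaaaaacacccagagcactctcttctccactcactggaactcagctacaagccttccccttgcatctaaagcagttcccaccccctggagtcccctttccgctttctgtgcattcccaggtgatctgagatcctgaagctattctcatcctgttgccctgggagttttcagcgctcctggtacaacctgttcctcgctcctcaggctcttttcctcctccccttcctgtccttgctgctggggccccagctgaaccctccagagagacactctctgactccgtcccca
Kcnj9: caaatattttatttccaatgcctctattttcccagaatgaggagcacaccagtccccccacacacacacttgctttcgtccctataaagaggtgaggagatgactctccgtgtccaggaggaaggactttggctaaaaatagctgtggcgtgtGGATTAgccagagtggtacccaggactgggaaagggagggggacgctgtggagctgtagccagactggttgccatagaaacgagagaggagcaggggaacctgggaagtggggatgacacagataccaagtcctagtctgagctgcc
Cacna1s: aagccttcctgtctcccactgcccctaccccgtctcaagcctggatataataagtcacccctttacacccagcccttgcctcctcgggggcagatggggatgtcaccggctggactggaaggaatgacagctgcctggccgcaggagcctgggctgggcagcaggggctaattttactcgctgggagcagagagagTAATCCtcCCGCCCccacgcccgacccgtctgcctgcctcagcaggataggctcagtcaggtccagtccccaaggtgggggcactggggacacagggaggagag
Kcnd2: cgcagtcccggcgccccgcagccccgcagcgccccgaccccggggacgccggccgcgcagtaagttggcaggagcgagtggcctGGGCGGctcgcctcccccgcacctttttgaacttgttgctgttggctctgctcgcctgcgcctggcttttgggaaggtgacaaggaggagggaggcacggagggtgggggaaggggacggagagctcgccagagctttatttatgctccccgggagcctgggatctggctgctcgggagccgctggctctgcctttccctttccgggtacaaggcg

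Among the 5 auxiliary subunits of voltage-gated potassium channels, 3 were higher in retina and 1 lower at the first site, and 2 higher and 1 lower at site 2. The 3 were the beta subunits Kcnab1, Kcnab2 and Kcnab3, cytoplasmic proteins related to aldo-keto reductases that bind Shaker channels. Kcnab2 had 1477, 1299, 1362, 1275 and 1275 in first-site retina, against 168, 131, 150.4, 167 and 146 in first-site cortex. Among the site 2 arrays it had 1734, 1821 and 1746 in retina and 206, 119 and 184 in cortex. The groups were far apart at both sites, by 3.02 ± 0.08 (SE, adjusted p = 4.3e-14) at the first site and, on the site 2 arrays, by 3.30 ± 0.20 (adjusted p = 1.2e-06).

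Kcnab3 had 127, 134, 154, 88.5 and 101 in first-site retina and 66.4, 65.5, 58.7, 64.6 and 51.2 in first-site cortex, a difference of 0.82 ± 0.14 (SE, adjusted p = 0.00013). At site 2 it had 213, 188 and 200.3 in retina and 61.8, 80.5 and 48.2 in cortex, a difference of 1.5 ± 0.20 (adjusted p = 0.00028). No retina array fell among the cortex arrays at either site. Kcnab1 had 244, 268, 242, 272 and 208 in first-site retina and 104, 114, 80.8, 98.7 and 85.2 in first-site cortex, a difference of 1.24 ± 0.11 (adjusted p = 6.5e-08). At site 2 its arrays overlapped, with 187, 256 and 208 in retina and 196, 253 and 104 in cortex, and the difference of 0.32 ± 0.26 did not pass (adjusted p = 0.43).

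Kcne1l, a small membrane-spanning partner of potassium pores, was lower in retina. It had 25.6, 20.4, 46, 36.6 and 10.3 in first-site retina and 75.5, 84.0, 86.4, 78.3 and 116 in first-site cortex, a difference of -1.33 ± 0.20 (SE, adjusted p = 3.1e-05). The difference at site 2 was -0.62 ± 0.17 (adjusted p = 0.017), and it was -0.70 to -0.51 when 1 array was left out, with the call lost without replicate 1 of either tissue. Both tissues were brighter for Kcne1l at site 2 than at the first site, by 1.34 ± 0.21 in retina and 0.63 ± 0.21 in cortex (adjusted p = 7.6e-05 and 0.045). Kcne1, a relative that partners Kcnq1 in heart, did not pass at either site.

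The 2-pore potassium channels carry background current that sets the resting potential. Of the 5 genes, 2 were higher in retina and 1 lower at the first site, and 1 was higher and 1 lower at site 2. Kcnk2, which encodes the mechanosensitive channel TREK, had 98.7, 109, 110.1, 106 and 93.1 in first-site retina, against 674, 692, 699.9, 654 and 717 in first-site cortex. On the site 2 arrays it had 107, 123 and 124 in retina and 914, 970.5 and 874 in cortex. Retina arrays were tight and well below cortex arrays throughout, and the differences were -2.57 ± 0.07 (SE, adjusted p = 7e-14) at the first site and, on the site 2 arrays, -2.79 ± 0.14 (adjusted p = 3.8e-07). Of the 68 genes Kcnk2 had the lowest difference at both sites.

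Kcnk1, a weakly conducting member of the same family, had 1239, 1323, 1286, 1062 and 868 in first-site retina and 508, 598, 430.0, 330.2 and 516 in first-site cortex. The arrays did not overlap, and the difference was 1.27 ± 0.14 (SE, adjusted p = 1.2e-06). At site 2 the values were 629, 1118 and 643 in retina and 490.0, 288 and 644 in cortex, which overlap, and the difference of 0.76 ± 0.33 did not pass (adjusted p = 0.11). Kcnk3, an acid-sensitive leak channel, was at or under the floor on all 5 first-site cortex arrays and was at least 1.02-fold higher in retina there, with a fitted difference of 0.89 ± 0.15 (adjusted p = 9e-05). Among the site 2 arrays it was 0.93 ± 0.31 (adjusted p = 0.045), a call lost for 4 of the 6 ways of leaving out 1 array (0.60 to 1.11, adjusted p up to 0.17). Kcnk4 and Kcnk7 passed at neither site with all arrays, and without the dimmest cortex array Kcnk7 was higher at site 2 by 0.73 ± 0.18 (adjusted p = 0.0076).

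Inward rectifiers pass potassium near the resting potential, and those of the Girk group open when G proteins release their beta-gamma subunits. Among 11 genes, 2 were higher in retina, 2 were lower and 7 did not pass at the first site, and 1 was higher and 1 lower at site 2. Kcnj9, a Girk subunit, had 211, 177, 269, 142 and 176 in first-site retina and 109, 35.4, 98.7, 78.3 and 61.3 in first-site cortex, a difference of 1.24 ± 0.21 (SE, adjusted p = 0.00012). At site 2 it had 323, 287 and 273 in retina and 76.2, 15.8 and 83.4 in cortex, a difference of 2.09 ± 0.28 (adjusted p = 0.00027). Retina arrays lay above all cortex arrays at each site, although the cortex arrays were spread widely. The other Kcnj9 probe set did not repeat the first-site difference, at -0.11. Kcnj3, which encodes the subunit that Kcnj9 assembles with, passed as lower at the first site (fitted difference -0.62 ± 0.22, adjusted p = 0.026). All 8 retina arrays were at or under the floor for Kcnj3, as were 4 of the 5 first-site cortex arrays, so no fold is given. The call was lost for 6 of the 10 ways of leaving out 1 array (-0.81 to -0.51, adjusted p up to 0.073).

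Kcnj12, a strong rectifier of heart and muscle, was higher in retina by 0.57 ± 0.13 (SE) at the first site (adjusted p = 0.0015) with no overlap of arrays. The first-site cortex arrays read 16.8 to 21.5 for Kcnj12, where their floors ran from 17.7 to 37.0, so cortex was at or near the floor. The Kcnj12 difference at site 2 was 0.62 ± 0.24 (adjusted p = 0.08), and without the dimmest cortex array it was 0.76 ± 0.21 (adjusted p = 0.011). Kcnj4, a strong rectifier of forebrain neurons, had 76.2, 93.2, 95.6, 56.4 and 95.3 in first-site retina and 131, 113, 134, 109 and 100.4 in first-site cortex, a difference of -0.44 ± 0.14 (adjusted p = 0.014). On the site 2 arrays it was lower, with a difference of -0.52 ± 0.16 (adjusted p = 0.026), a call lost for 5 of the 6 ways of leaving out 1 array (-0.55 to -0.48, adjusted p up to 0.094). The Girk genes Kcnj5 and Kcnj6, the KATP pores Kcnj8 and Kcnj11, and Kcnj1, Kcnj2 and Kcnj15 passed at neither site with all arrays. Kcnj5 passed as higher at site 2 without the dimmest cortex array (0.64 ± 0.24, adjusted p = 0.046). Kcnj2 was at or under the floor on every array, and Kcnj5 and Kcnj15 were above it on 1 array each.

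Calcium-activated potassium channels and their relatives gave 1 higher and 2 lower of 5 genes at the first site, and 0 higher and 3 lower at site 2. Kcnn1, an SK channel of the afterhyperpolarisation, was lower in retina, with a difference of -0.27 ± 0.07 (SE, adjusted p = 0.0056) at the first site, with no overlap of arrays. At site 2 the Kcnn1 difference was -0.40 ± 0.15 (adjusted p = 0.073), and -0.44 ± 0.13 without the dimmest cortex array (adjusted p = 0.016). Kcnu1, a Slo family channel best known from sperm, was lower, with a difference of -0.97 ± 0.20 at the first site (adjusted p = 0.00076). Among the site 2 arrays it was lower, with a difference of -0.61 ± 0.19 (adjusted p = 0.031), a call lost for 5 of the 6 ways of leaving out 1 array (-0.67 to -0.56, adjusted p up to 0.13). The BK beta subunit Kcnmb1 was at or under the floor on every array, although it passed at site 2 without the dimmest cortex array (0.73 ± 0.26, adjusted p = 0.041). The BK pore Kcnma1 and the intermediate-conductance channel Kcnn4 depended on the site and are described with the interaction.

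Of the pacemaker channels, Hcn2 and Hcn3 were measured. Hcn3 had 464, 484, 398, 453 and 354 in first-site retina, against 770.5, 799.7, 722, 739.9 and 817 in first-site cortex, and all retina arrays were below all cortex arrays. At site 2 Hcn3 had 354, 333 and 410.3 in retina and 652, 670.5 and 685 in cortex, once more without overlap. The difference was -0.82 ± 0.09 (SE, adjusted p = 7e-07) at the first site and, on the site 2 arrays, -0.82 ± 0.15 (adjusted p = 0.002). Hcn2, the subunit common in thalamus and heart, had 726, 783, 640.4, 913 and 848 in first-site retina and 731, 747, 711, 643 and 733 in first-site cortex, which overlap. Its differences of 0.13 ± 0.08 at the first site and, on the site 2 arrays, -0.11 ± 0.16 did not pass (adjusted p = 0.23 and 0.74).

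The 6 sodium pores gave 2 higher and 2 lower at the first site, and at site 2 limma called 0 of 6 with all arrays, with 0 of 6 also at unadjusted p under 0.05. Scn1a, the sodium channel of fast-spiking interneurons and of retinal ganglion cells, had 704, 696, 629, 781 and 566 in first-site retina and 259.5, 245, 243, 297 and 299.5 in first-site cortex. Retina arrays were all higher, by 1.29 ± 0.10 (SE, adjusted p = 9.7e-09). At site 2 it had 483, 541 and 454 in retina and 277, 690.2 and 252 in cortex, where the dimmest cortex array alone exceeded the retina arrays. The site 2 difference was 0.45 ± 0.27 (adjusted p = 0.27) with that array and 0.82 ± 0.11 (adjusted p = 0.00013) without it.

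Scn8a, which clusters at the axon initial segment and at nodes of Ranvier, had 109.5, 109.9, 93.1, 79.3 and 104 in first-site retina and 122, 132, 142, 128 and 146 in first-site cortex, a difference of -0.39 ± 0.11 (SE, adjusted p = 0.0075). On the site 2 arrays it had 149.7, 182 and 216 in retina and 192, 144 and 155 in cortex, which overlap (difference 0.14 ± 0.19, adjusted p = 0.68). The other 4 sodium pores were at or near the floor. Scn7a, a sodium-level sensor, was above the floor on 3 of 5 retina arrays and on no cortex array at the first site, where it passed as higher (fitted difference 0.46 ± 0.15, adjusted p = 0.017) but its mean retina level did not exceed the cortex floor and no fold is given. At site 2, where cortex was again at or under the floor, it was at least 1.31-fold higher in retina, with a fitted difference of 0.99 ± 0.45 with all arrays (adjusted p = 0.13) and 1.48 ± 0.24 without the dimmest cortex array (adjusted p = 0.00046). Scn9a, the channel of peripheral nociceptors, passed as lower at the first site (fitted difference -0.67 ± 0.22, adjusted p = 0.018), where no retina array and 1 cortex array exceeded the floor, so no fold is given. Without replicate 1 of the retina arrays or replicates 3 or 4 of the cortex arrays the Scn9a call was lost (-0.81 to -0.53 over arrays left out, adjusted p up to 0.055). Scn3a, a channel prominent in embryonic brain, differed by -0.33 ± 0.26 at the first site (adjusted p = 0.35), with 1 array above the floor, and Scn10a had none.

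Of the 7 calcium pores, 4 were lower in retina at each site and 1, Cacna1s, was higher at each. Of those lower, 3 were the same genes at both sites (Cacna1b, Cacna1c and Cacna1g). Cacna1c, the L-type pore of heart and of neuronal dendrites, had 124, 119, 125, 104 and 127 in first-site retina and 345, 434, 378, 312 and 334 in first-site cortex. At site 2 Cacna1c had 110.2, 107 and 111 in retina and 386, 504 and 359 in cortex. The groups were well separated, by -1.47 ± 0.09 (SE, adjusted p = 1.4e-09) at the first site and, on the site 2 arrays, by -1.75 ± 0.15 (adjusted p = 9.6e-06).

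The presynaptic pores followed in the same direction. Cacna1b, the N-type pore, had 161, 158, 171, 131 and 195 in first-site retina and 323, 282, 263, 271 and 262 in first-site cortex, a difference of -0.73 ± 0.10 (SE, adjusted p = 1.2e-05). Among the site 2 arrays it was lower, with a difference of -0.68 ± 0.23 (adjusted p = 0.049) with overlapping arrays, a call lost for 5 of the 6 ways of leaving out 1 array (-0.95 to -0.51, adjusted p up to 0.17). Cacna1a, the P/Q-type pore, was lower, with a difference of -0.99 ± 0.18 at the first site without overlap (adjusted p = 0.00019). At site 2 it differed by -0.71 ± 0.34 (adjusted p = 0.15), and by -1.17 ± 0.15 without the dimmest cortex array (adjusted p = 0.00011). The T-type pore Cacna1g was lower, with a difference of -0.37 ± 0.12 at the first site and, on the site 2 arrays, -0.48 ± 0.16 (adjusted p = 0.017 and 0.043), and its site 2 call was lost for 4 of the 6 ways of leaving out 1 array (-0.58 to -0.36, adjusted p up to 0.13). The R-type pore Cacna1e passed at site 2 alone, where retina was lower, with a difference of -0.98 ± 0.26 (adjusted p = 0.015). The T-type pore Cacna1h passed at neither site with all arrays, and at site 2 without the dimmest cortex array (0.99 ± 0.26, adjusted p = 0.009).

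Cacna1s, the L-type pore that triggers contraction in skeletal muscle, had 108, 106, 103, 96.4 and 98.7 in first-site retina and 32.5, 37.0, 10.1, 39.5 and 7.70 in first-site cortex, a difference of 1.65 ± 0.24 (SE, adjusted p = 1.9e-05). On the site 2 arrays it had 170.3, 179 and 178 in retina and 27.8, 28.2 and 32.0 in cortex, a difference of 2.08 ± 0.18 (adjusted p = 1.3e-05). Retina arrays were tight and above every cortex array, and 2 of the 5 first-site cortex arrays exceeded the floor. Of 14 skeletal muscle genes measured, 2 were higher in retina and 2 lower at the first site. Their summed levels were 1497 to 1915 in retina and 1386 to 1509 in cortex. The largest part of each sum was Pvalb, with means of 1180 in retina and 823 in cortex, so the sums mainly follow that gene. Of the 14, 6 were above the floor on all 16 arrays (Pvalb, Mylpf, Actn3, Myh4, Atp2a1 and Acta1) and 4 were at or under it on all (Mb, Myh1, Myh2 and Tnni2). Pvalb and Mylpf were the 2 called higher, and Acta1 and Ryr1 the 2 called lower. Ryr1, the release channel that Cacna1s opens in muscle, was at least 2.28-fold lower in retina at the first site, where no retina array was above the floor (adjusted p = 3.6e-08). The part of muscle RNA in the Cacna1s result was not tested.

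The auxiliary subunits of calcium channels split evenly, with 2 of 5 higher and 2 lower in retina at the first site, and 2 higher and 3 lower at site 2. Cacnb2 encodes a beta subunit that brings L-type pores to the membrane, also at photoreceptor terminals. It had 1000.3, 836, 1050.2, 709.8 and 1058 in first-site retina, against 188, 165, 192, 159 and 178 in first-site cortex. At site 2 Cacnb2 had 1439, 1557 and 1469.8 in retina and 232, 207 and 233 in cortex. All retina arrays were far above all cortex arrays, and the differences were 2.30 ± 0.11 (SE, adjusted p = 2.6e-11) at the first site and, on the site 2 arrays, 2.67 ± 0.15 (adjusted p = 6e-07).

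The alpha2-delta subunits, extracellular proteins that raise the number of calcium channels at the membrane, went in opposite directions. Cacna2d3 had 971, 922, 929, 896 and 841 in first-site retina and 384, 365, 369, 307 and 388 in first-site cortex, and it was higher in retina by 1.31 ± 0.08 (SE, adjusted p = 5.5e-10) there and by 1.48 ± 0.17 (adjusted p = 8.9e-05) at site 2. Cacna2d1, the gabapentin receptor, had 68.6, 72.2, 47.5, 79.1 and 67.1 in first-site retina and 251, 231, 203, 185 and 206 in first-site cortex. It was lower in retina, with a difference of -1.5 ± 0.13 (adjusted p = 3.6e-08) at the first site and, on the site 2 arrays, by -2.0 ± 0.19 (adjusted p = 2.3e-05). Neither gene had overlapping arrays at either site. Cacng2, which encodes stargazin, a partner of AMPA receptors, had 182, 179, 158, 192 and 154 in first-site retina and 305, 290.2, 270.1, 277 and 351 in first-site cortex, a difference of -0.73 ± 0.09 (adjusted p = 5.9e-06). Its difference at site 2 was -0.99 ± 0.17 (adjusted p = 0.0014).

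In the chloride family, 2 of 6 genes were higher in retina and 2 lower at the first site, and 1 was higher and 2 lower at site 2. Clcn7, the chloride-proton exchanger of lysosomes, had 352, 379.6, 371, 294 and 379 in first-site retina and 209.5, 199, 203, 213 and 224 in first-site cortex, a difference of 0.72 ± 0.09 (SE, adjusted p = 2.2e-06). At site 2 Clcn7 had 646, 685 and 705 in retina and 275, 207 and 267 in cortex, a difference of 1.41 ± 0.17 (adjusted p = 0.00014). Clcn5, the endosomal exchanger of kidney, was the reverse, with 122, 97.2, 111, 122 and 104 in first-site retina and 243, 217, 256, 200.3 and 233 in first-site cortex, a difference of -0.95 ± 0.10 (adjusted p = 4.8e-07). At site 2 the Clcn5 difference was -0.72 ± 0.22 (adjusted p = 0.028), a call lost without any 1 of the 3 retina arrays (-0.87 to -0.47 over arrays left out, adjusted p up to 0.10).

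Clcn3, an endosomal exchanger, was higher in retina at the first site by 0.48 ± 0.08 (SE, adjusted p = 6e-05). At site 2 Clcn3 had 3017, 3284 and 3069 in retina and 2284, 4839.6 and 2030.0 in cortex, and the dimmest cortex array alone exceeded the retina arrays. The site 2 difference was 0.18 ± 0.23 (adjusted p = 0.68) with all arrays and 0.47 ± 0.10 without that one (adjusted p = 0.0036). Clcn4, its close relative, was lower, with a difference of -0.37 ± 0.06 at the first site (adjusted p = 8e-05) and by -0.35 ± 0.15 at site 2, which did not pass (adjusted p = 0.11). Without the dimmest cortex array the Clcn4 difference at site 2 was -0.45 ± 0.10 and passed (adjusted p = 0.0047). Both tissues were dimmer for Clcn4 at site 2 than at the first site, with a difference of -1.34 ± 0.09 in retina and -1.36 ± 0.09 in cortex (adjusted p = 2.6e-09 and 7.2e-09). The other Clcn4 probe set, above the floor on all 16 arrays, did not repeat this, with site differences of 0.16 ± 0.14 in retina and 0.09 ± 0.14 in cortex (adjusted p = 0.39 and 0.73). Clcn1, the chloride channel of skeletal muscle, passed at site 2 alone, where it had 17.6, 47.0 and 64.1 in retina and 94.6, 132 and 84.0 in cortex. The Clcn1 difference there was -1.10 ± 0.32 (adjusted p = 0.024), and it was -0.71 without replicate 1 of the retina arrays, which did not pass (adjusted p = 0.065). Clcn2 passed at neither site.

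The tissue difference itself was compared between sites in 1 fit over all 16 arrays. For 6 of the 68 genes it differed between sites (limma interaction, adjusted p under 0.05): 2 were more positive at site 2 (2.94% of the members, background 2.07%) and 4 more negative (5.88%, background 1.3%). Across all 68 genes, 56 had differences of the same sign at both sites, and the share of all probe sets that did was not counted. The 2 genes called in opposite directions at the sites were Kcna1 and Kcnma1.

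Kcna1 encodes a Shaker channel that limits the firing of axons. Among the site 2 arrays it had 39.1, 55.4 and 57.4 in retina and 87.8, 107 and 84.6 in cortex, a difference of -0.72 ± 0.20 (SE, adjusted p = 0.018). At the first site it had 208, 237, 240.2, 212 and 203 in retina and 48.2, 16.3, 17.7, 17.9 and 38.2 in cortex, a difference of 2.52 ± 0.18 (adjusted p = 5.2e-09). Retina was thus the dimmer tissue at site 2 and the brighter one at the first site, with no overlap of arrays at either. The interaction was -3.24 ± 0.29 (adjusted p = 6.2e-07), and both tissues took part. Retina was lower at site 2 than at the first site, with a difference of -1.86 ± 0.20 and cortex was higher by 1.38 ± 0.20 (adjusted p = 1.5e-06 and 0.00018). Without replicate 1 of the site 2 retina arrays the Kcna1 difference at site 2 was -0.58 and did not pass (adjusted p = 0.079).

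Kcnma1, the pore of the large-conductance BK channel, behaved likewise. It had 328, 358 and 409 in site 2 retina and 1073, 1933 and 1031 in site 2 cortex, a difference of -1.75 ± 0.19 (SE, adjusted p = 5.5e-05). At the first site it had 1061, 930.4, 1008, 954 and 907 in retina and 722, 612, 653, 734 and 743 in cortex, a difference of 0.49 ± 0.08 (adjusted p = 7.9e-05). Kcnma1 was above the floor on all 16 arrays, and retina and cortex arrays did not overlap at either site. The interaction was -2.24 ± 0.18 (adjusted p = 1.7e-07), and -2.05 without the dimmest cortex array (adjusted p = 2.5e-08). The pools are the same at both sites per the design text, and the cause of the reversal was not tested.

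A pair of dimmer genes also had negative interactions. Kcnn4, the intermediate-conductance channel that red cells and lymphocytes carry, had 14.7, 13.5 and 9.17 in site 2 retina, all at or under the floor, and 35.2, 77.2 and 30.2 in site 2 cortex. Retina was at least 2.54-fold lower there (fitted difference -1.07 ± 0.34, SE; adjusted p = 0.034). At the first site Kcnn4 had 85.4, 84.1, 50.5, 74.1 and 79.7 in retina and 64.4, 58.2, 47.6, 72.7 and 50.2 in cortex, all above the floor and overlapping. The interaction of -1.35 ± 0.33 (adjusted p = 0.026) was lost without replicate 2 or 3 of the site 2 retina arrays (-1.60 to -0.97 over arrays left out, adjusted p up to 0.079), and the site 2 difference without any 1 of the 3 (-1.32 to -0.70, adjusted p up to 0.11). Red cell markers were lower in retina for 3 of 3 genes, with summed levels of 774 to 857 in site 2 retina and 3826 to 4924 in site 2 cortex, and their part in the Kcnn4 result was not tested. Cacng1, a calcium channel subunit of skeletal muscle, had 12.0, 26 and 22.8 in site 2 retina and 57.7, 63.2 and 48.7 in site 2 cortex, a difference of -1.05 ± 0.26 (adjusted p = 0.011). At the first site it had 41.7, 42.0, 31.2, 40.2 and 42.0 in retina and 24.0, 17.1, 9.58, 32.9 and 42.1 in cortex, and the interaction was -1.52 ± 0.33 (adjusted p = 0.013). The summed skeletal muscle list read 1288 to 1481 in site 2 retina and 1044 to 1126 in site 2 cortex. Its largest part was Pvalb, with means of 963 in site 2 retina and 537 in site 2 cortex. The part of muscle RNA in the Cacng1 result was not tested.

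Kcnh2 and Clcn7 were higher in retina at both sites, and by more at site 2. The interaction was 0.69 ± 0.16 (SE, adjusted p = 0.016) for Kcnh2 and 0.69 ± 0.17 (adjusted p = 0.03) for Clcn7. For Kcnh2 it was lost without replicate 2 or 3 of the site 2 retina arrays, where it ranged from 0.55 to 0.81 over arrays left out (adjusted p up to 0.061). For Clcn7 it was lost without the same retina arrays or without replicate 1 or 5 of the first-site cortex arrays (0.52 to 0.78, adjusted p up to 0.087). Without the dimmest cortex array the interaction also passed for Kcnab3 (0.86, adjusted p = 0.037) and Scn7a (1.02, adjusted p = 0.03). The other Clcn7 probe set gave an interaction of -0.07 ± 0.23 (adjusted p = 0.95). Among probe sets that do not stand for a gene, 1 of Clcn3 had an interaction of 1.11 ± 0.28 (adjusted p = 0.036) and the other one of Hcn2 had 0.64 ± 0.17 (adjusted p = 0.049).

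**Figure D3:**
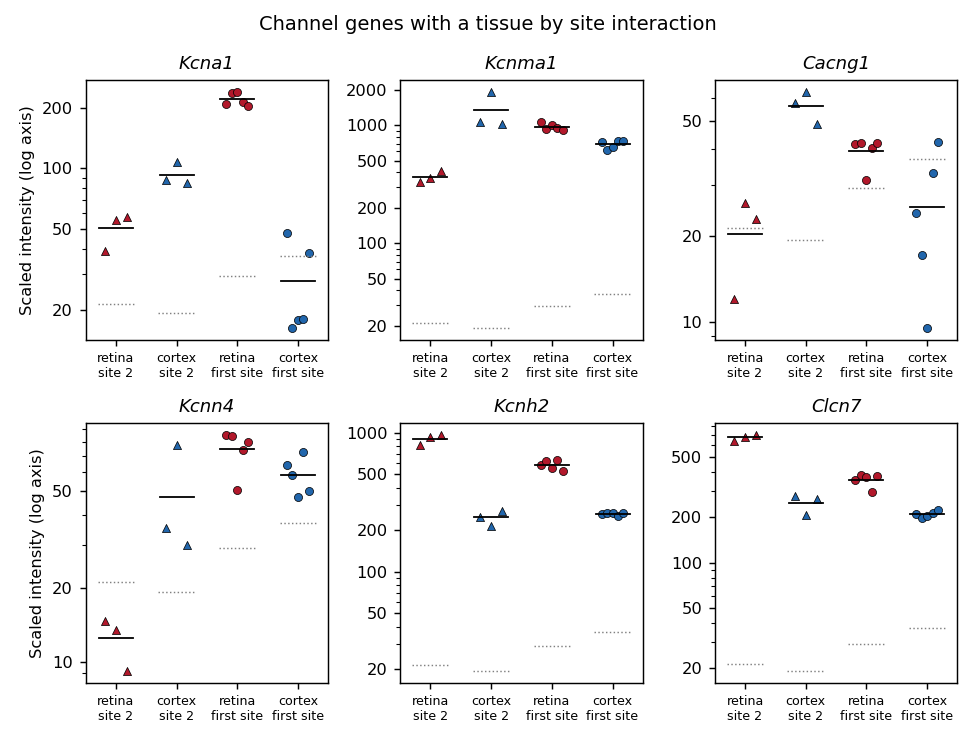
Scaled intensity on a log axis of the 6 channel genes with an interaction of tissue and site, 1 mark per array, with retina in red and cortex in blue, triangles for site 2 and circles for the first site. Solid lines are group means and dotted lines the highest floor among a group's arrays. For Kcna1 and Kcnma1 the retina marks lie below the cortex marks at site 2 and above them at the first site, whereas for Kcnh2 and Clcn7 they lie above at both.

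Levels also moved between sites within a tissue. In retina 12 of the 68 genes were higher at site 2 than at the first site and 10 lower, or 17.6% and 14.7%, beside backgrounds of 23.2% and 12.5%. In cortex 8 were higher and 3 lower, or 11.8% and 4.41%, beside backgrounds of 10.3% and 6.4%. Besides the genes above, Scn8a was higher in retina at site 2 by 0.79 ± 0.14 (SE), Cacna1a by 0.81 ± 0.26 and Cacnb2 by 0.68 ± 0.13 (adjusted p = 0.00025, 0.021 and 0.00036). Kcnq1 was lower at site 2 in both tissues, with a difference of -0.81 ± 0.14 in retina and -0.68 ± 0.14 in cortex (adjusted p = 0.00015 and 0.0021), and so was Kcna3, with a difference of -0.61 ± 0.18 and -0.85 ± 0.18 (adjusted p = 0.011 and 0.0026). For these 2 genes the tissue difference kept its sign while both levels moved. The other Kcnq1 probe set, at or under the floor on most arrays, overlapped between the sites. It had 4.51 to 35.7 in first-site retina and 12.4 to 24.9 in site 2 retina. In cortex it had 5.12 to 24.6 at the first site and 10.6 to 23.4 at site 2. Without replicate 3 of the site 2 retina arrays 14 genes passed in retina, and without the dimmest cortex array 24 passed in cortex. The backgrounds above are for all arrays and were not recounted here, so these changes are not particular to channel genes as far as was counted.

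**Figure D4:**
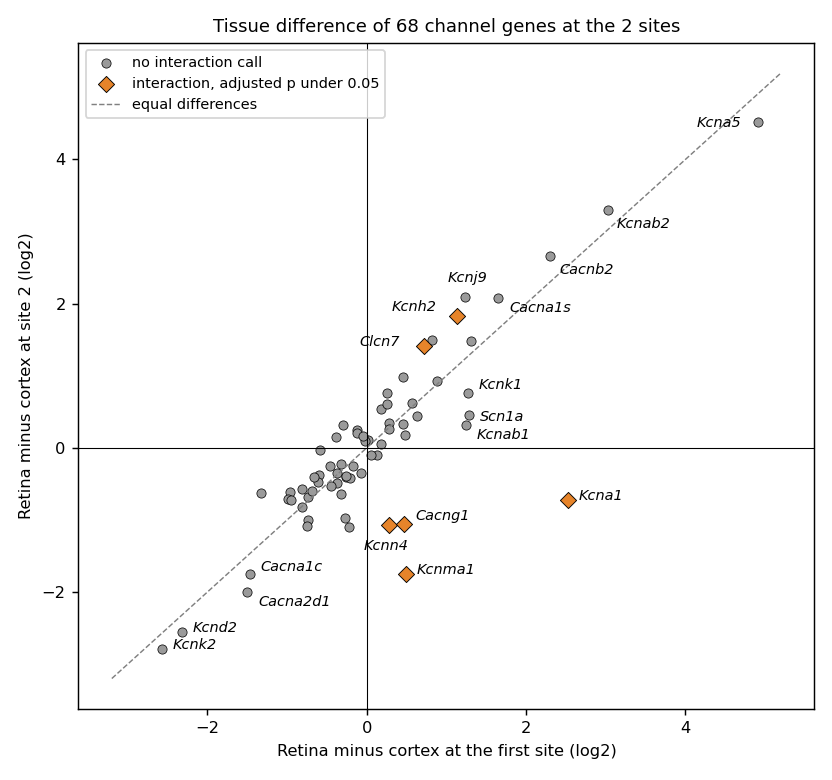
Retina minus cortex difference in log2(intensity + 16) of 68 channel genes, with the first site on the horizontal axis and site 2 on the vertical axis, and a dashed line where both are equal. Orange diamonds mark the 6 genes with an interaction of tissue and site. Kcna5 lies at 4.91 and 4.52 and Kcnk2 at -2.57 and -2.79, close to the line, and Kcna1 lies at 2.52 and -0.72, far from it.

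Of the 18 genes with several probe sets, none had calls in opposite directions at either site. At the first site all probe sets passed for 6 genes, some for 6 and none for 6. Both Kcnab2 probe sets were higher in retina, by 3.02 ± 0.08 and 2.55 ± 0.13 (SE), and both Kcnd2 probe sets were lower, with a difference of -2.32 ± 0.17 and -1.52 ± 0.15. The other Scn1a probe set was higher in first-site retina by 1.23 ± 0.13, and the site 2 value was 0.64 ± 0.15, which passed (adjusted p = 0.007) while that of the brighter one did not. All 4 Clcn3 probe sets were higher at the first site, between 0.31 and 0.79. The other Kcna5 probe set, by contrast, was above the floor on 1 of 16 arrays and differed by 0.01 ± 0.15, so the Kcna5 result rests on a single probe set. For Kcnj9 the other probe set was above the floor on 15 of 16 arrays and differed by -0.11 ± 0.22 (adjusted p = 0.75), which does not repeat the difference of the brighter one. The other Clcn5 probe set, dimmer and above the floor on 11 of 16 arrays, differed by 0.09 ± 0.21 (adjusted p = 0.77).

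**Figure D5:**
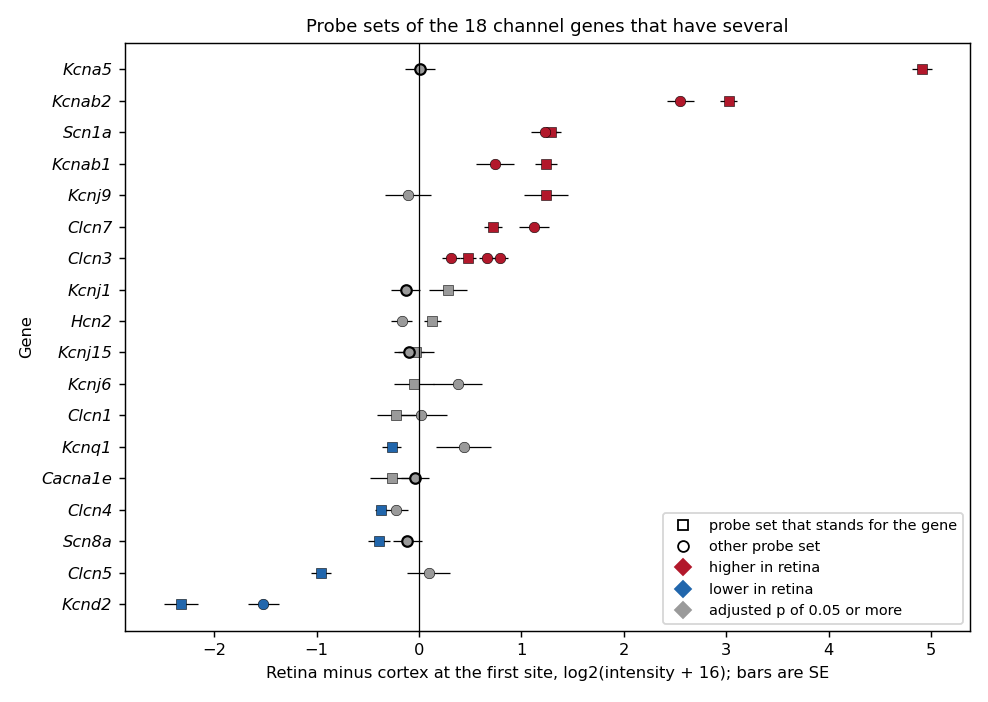
Retina minus cortex difference at the first site in log2(intensity + 16) for every probe set of the 18 channel genes that have several, with bars for the SE. Squares are the probe sets that stand for the gene, circles the others, and a thick outline marks probe sets that exceeded the floor on no first-site array. The Kcnab2, Scn1a, Kcnab1, Clcn7, Clcn3 and Kcnd2 probe sets all passed in 1 direction, while those of Kcna5 lie at 4.91 and 0.01.

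Other channel and channel-partner genes were read from 3 further lists. Of 10 measured cyclic nucleotide-gated and TRP channels, 4 were higher in retina and 3 lower at the first site, and 4 higher and 4 lower at site 2. Cnga1, the rod light-response channel, was at least 62.6-fold higher in retina at the first site, where no cortex array was above the floor (adjusted p = 3.4e-16). Trpc5, a TRP channel of neurons, was at least 2.67-fold lower there, with no retina array above the floor (adjusted p = 6e-07). Of 19 proteins that anchor or modulate channels, 5 were higher and 8 lower at the first site, and 4 higher and 5 lower at site 2. Among them the scaffold Dlg1 was higher by 1.34 ± 0.08 and Ank3, the ankyrin of the axon initial segment, lower, with a difference of -0.60 ± 0.09 (adjusted p = 7.8e-10 and 2.2e-05). Of 9 genes for calcium stores and extrusion, 1 was higher and 4 lower at the first site, and 0 higher and 2 lower at site 2. Slc8a1, a sodium-calcium exchanger, was lower, with a difference of -1.41 ± 0.09 at the first site and -1.40 ± 0.14 at site 2 (adjusted p = 2.3e-09 and 3.8e-05).

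Markers of cell types also differed between the tissues. Higher in retina at the first site were 4 of 4 cone, 4 of 4 bipolar, 5 of 6 amacrine and horizontal, 5 of 5 ganglion, 4 of 5 Mueller glia and 4 of 6 pigment epithelium markers, with none lower. Of 5 cortical neuron markers, 1 was higher (Neurod1) and 4 lower, and of 5 progenitor markers 1 was higher (Pax6) and 4 lower. Pax6 is also counted among the higher amacrine and horizontal markers. Mural and endothelial markers gave 1 higher and 5 lower of 8, astrocyte markers 2 higher and 1 lower of 3, and oligodendrocyte markers 0 higher and 1 lower of 4. At site 2 mural and endothelial markers gave 1 higher and 4 lower, astrocyte markers 0 and 0, and oligodendrocyte markers 0 and 1. The part of any 1 cell type in a channel's difference was not tested.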

How the data were processed

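Total RNA from 2 pools (about 10 µg per labelling, extracted with TRIzol per the labels) was labelled as biotin-cRNA and hybridised to 1-colour arrays, 16 in all. The authors deposited 1 linear intensity per probe set and array, with a lowest value of 0. The summarisation, background correction and scaling behind these intensities are not given in any source used. Of 12488 probe sets, 66 controls were left out. Values were turned into log2(intensity + 16) and centred on each array's median over the 12422 others. limma 3.58.1 in R 4.3.3 (lmFit, eBayes with an intensity trend, two-sided) tested retina minus cortex within each site, and the interaction and the site differences (site 2 minus first site) in 1 fit over all 16 arrays, with Benjamini-Hochberg adjustment over all 12422 and a threshold of 0.05. A fold change on this scale understates the change of dim genes. A group whose arrays are all at or under the floor has only a bound, written as at least N-fold, and no fold where the bound is under 1. A fitted difference printed for such a gene is no bound. The choice of this floor was made with the data in view.

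Gene names came from the platform annotation. It gave 1 symbol to 10833 probe sets and several to 396. All 68 channel genes matched RefSeq. Named genes were the calls with the largest differences in each class (up to 4 in each direction), every Hcn and Scn pore, every interaction call, and genes called in opposite directions or at least 2-fold at site 2 alone. Values are given for every array of the genes the results turn on, and differences for the others. The members and the gene lists were chosen with earlier results of these data known. The number of arrays limits the precision. The fits were checked on simulated data, in which only probe sets brighter than the array median changed and all had the same spread. That check does not cover dim genes or an array that stands apart. Alternatives were other pseudocounts, normalizations and centrings, a filter on dim probe sets, the replicate number as a block, and leaving out each array in turn.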

Additional observations from a re-analysis of the deposited data

Results flagged for a closer look

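Among 92 tests of whether 1 of the 5 first-site arrays of a tissue lies far from the other 4, 5 arrays did so, and chance gives about 1 in 20. Replicate 3 of the retina arrays read 31.2 for Cacng1, against 40.2 to 42.0 in the others, and 50.5 for Kcnn4, against 74.1 to 85.4. Replicate 4 of the retina arrays read 294 for Clcn7, against 352 to 380. In cortex, replicate 1 read 323 for Cacna1b, against 262 to 282, and replicate 5 read 16.8 for Kcnj12, against 17.9 to 21.5.

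The tissue difference differed between the sites by the limma interaction (site 2 minus first site) for 6 genes. It was -3.24 on the log2 scale for Kcna1, -2.24 for Kcnma1, -1.52 for Cacng1, -1.35 for Kcnn4, 0.69 for Kcnh2 and 0.69 for Clcn7. The cause of these differences was not tested.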

How the results depend on the processing

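With probe sets above the median signal only, which leaves fewer genes, first-site retina had 12 members higher and 13 lower, 7 higher and 10 lower at site 2, and 12 differed between sites in retina. With no centring, 14 were lower at the first site, 4 were higher and 2 lower at site 2, the interaction passed for 2, and site differences passed for 4 in retina and 0 in cortex (limma, 6 at unadjusted p under 0.05). Centring on probe sets called at neither site left 10 lower at site 2, and a pseudocount of 50 left 3 interactions. The cause of these shifts was not tested. Leaving out 1 array gave 19 to 22 higher and 19 to 24 lower at the first site, 9 to 20 higher and 9 to 25 lower at site 2, 3 to 8 interactions, 14 to 22 site differences in retina and 9 to 24 in cortex. A background over all probe sets was recounted only for site 2 without the dimmest cortex array. The 9 lower at site 2 came without replicate 1 of its retina arrays, and the 3 interactions without replicate 2 or 3 of them. Same-numbered retina and cortex arrays did not deviate together (r from -0.19 to 0.04 over 5 pairs at the first site and 0.01 to 0.08 over 3 at site 2), and a fit with the replicate number as a block gave 21 higher and 24 lower for the first site, 11 and 19 for site 2, and 7 interactions. The block could not be fitted for differences between sites. Of 74 calls of named genes, 37 held under every alternative, 37 were lost at least once and 0 changed sign, and 57 held whichever array was left out. Kcna5, Kcnab2, Cacnb2, Kcnk2 and Kcnd2 at site 2 and the interactions of Kcna1 and Kcnma1 held under all of them. Signal near the floor limits what can be said of the 36 genes not above it on every array.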
